A study of Mus musculus with 6 samples.

Results

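The HA-tagged form of the histone variant TH2B was mapped on the autosomes of mouse spermatocytes as a list of islands, which are stretches of DNA where ChIP reads outnumber the reads of an input library. All islands on the 19 autosomes were taken, 14956 of the 15585 in the spermatocyte list and of the 46507 in the 3 lists of the series. The other 561 islands of the list on chromosome X and 68 on Y were left aside. The cells were spermatocytes, germ cells in meiosis, from adult Th2b+/tag mice, in which 1 copy of the gene encodes TH2B with His, Flag and HA tags at its C-terminal end and the other copy is unmodified. Cells were separated on a BSA gradient and chromatin was precipitated with an antibody raised against the HA tag, so TH2B from the untagged copy was not a target. The control was taken to be the input library of spermatocytes from mice of the same genotype. The number of mice is not given in the sources used here. The protocol's wording leaves unclear whether spermatocyte and round spermatid fractions were kept apart, and the cell type label was followed. The files hold no expression values, so the cell type could not be checked against markers.

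TH2B is a testis form of histone H2B, and in meiotic and post-meiotic germ cells it takes the place of much of the somatic H2B in nucleosomes. Nucleosomes containing it are less stable than those with the somatic form, and spermatids later exchange most histones for transition proteins and protamines. As background, histones spread over much of the genome commonly give broad and shallow ChIP signals rather than the sharp peaks of a transcription factor bound at a motif.

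There was 1 ChIP library and 1 input library and no replicate, so no difference below was tested between conditions. All intervals are at 95%. Those for the fold of an island or of summed reads cover counting error of reads. Those of medians and shares come from the number of islands and take islands as independent, which clustered islands need not be. No interval covers the spread between mice or library preparations, and reads are not independent molecules where PCR copied them. No HA ChIP of untagged cells was among the samples, so signal from the antibody without its tag was not measured. Autosomal islands held 2000483 ChIP reads and 1579106 input reads, and reads outside islands were not used here.

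Islands were a few kilobases long, far wider than a nucleosome. The median length was 3600 bp, with quartiles of 2800 and 4600 bp, and 90% of lengths lay between the 5th percentile of 1600 bp and the 95th of 6600 bp. The shortest islands were single windows of 200 bp, of which there were 16, and the longest was 38800 bp. Islands of 2400 to 4800 bp made up 66.0% of the list (exact interval 65.3 to 66.8). Together the islands covered 56.9 Mb, or 2.30% of the 2472 Mb of autosomes.

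The depth of an island was modest and similar across the list. The median island held 103 ChIP reads, with quartiles of 87 and 126, beside 79 input reads, with quartiles of 62 and 102. Per kilobase of island these were 29.4 ChIP reads and 22.5 input reads. Input density lay from 16.9 to 28.1 reads per kb in 82.0% of islands. A small set of 145 islands (0.970%, 0.819 to 1.14) had more than 2 times the median input density, above 45 reads per kb. This set covered 0.843% of the island length and held 18.1% of all ChIP reads, so totals of reads over the list lean on it and medians do not.

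**Figure D1:**
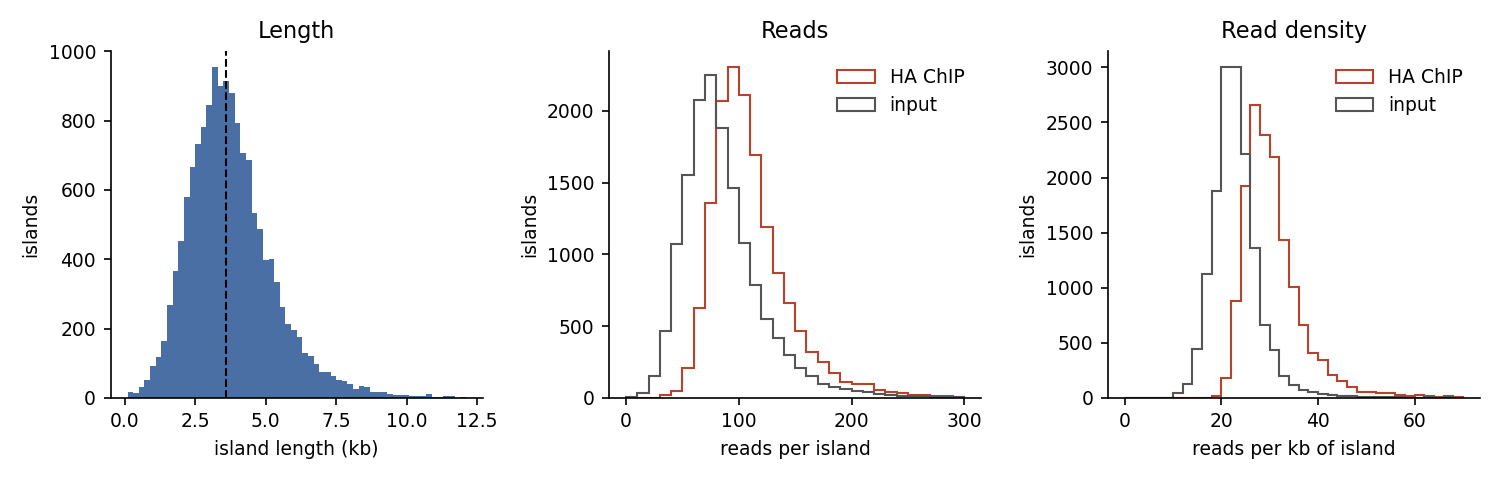
Histograms of island length in kb (left, dashed line at the median), of ChIP and input reads per island (middle) and of reads per kb of island (right) for 14956 autosomal islands. ChIP counts sit to the right of input counts with broad overlap. The 24 islands over 12 kb, the 87 and 72 with over 300 ChIP or input reads and the 113 and 71 above 70 reads per kb lie outside the plots.

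Enrichment over input was weak. Fold is the ratio of ChIP to input reads divided by the constant 0.854, which scales the libraries to each other. The median fold was 1.51 (interval of the median 1.51 to 1.52), with quartiles of 1.38 and 1.71 and a 95th percentile of 2.17. Of the islands, 7779 (52.0%) had a fold of 1.5 or more. Those at 2 or more numbered 1361, or 9.1% of the list (8.64 to 9.57), and those at 3 or more numbered 90 (0.602%, 0.484 to 0.739). A deposited FDR of 0.0001 or less was held by 7522 islands, or 50.3%.

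The reads in 1 island left its fold loosely determined. For the median island the upper end of the fold's exact interval was 1.84 times the lower end. The interval lay wholly above 1 in 13088 islands (87.5%, 87.0 to 88.0), wholly above 1.5 in 797 (5.33%) and wholly above 2 in 63 (0.421%). It lay wholly below 2 in 6618 islands (44.2%). The caller listed only islands with an excess of ChIP over scaled input, so the share above 1 was largely fixed by that choice and is given as a description. Few islands could be placed above a 2-fold enrichment one by one. Among the 1361 islands with a fold of at least 2, all had a lower bound above 1, which their choice by fold favours, and 781 had one above 1.5.

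The spread of folds over the list was close to the size of counting error. On the log2 scale the folds had an SD of 0.25 over all islands, beside 0.22 from the counts alone. In islands of 2000 to 4000 bp both were 0.23, and in those of 4000 to 8000 bp they were 0.18 and 0.19. Each length class includes its upper end and not its lower. In islands up to 2000 bp the SD was 0.34 beside 0.29. The threshold of the caller removes low folds and so narrows the observed spread, and by how much was not tested.

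The deposited p-values took the input count of an island as a fixed expectation without error. Each of the 15583 deposited p-values above 0, sex chromosomes included, was recovered to within 1e-06 of its size as a Poisson tail above the ChIP count, with the scaled input count as its mean. The other 2 p-values were deposited as 0. The deposited FDR values implied that 27927 candidate islands had been tested genome-wide, of which 12342 are not in the list and were not analysed here. The islands nearest the threshold show what this means. At chr4:80623401-80627800 and chr13:67488001-67492000, both with 116 ChIP and 107 input reads, the deposited FDR was 0.00998 and the fold was 1.27, with an exact interval of 0.968 to 1.67. When reads of both libraries were given counting error, by a one-sided exact binomial comparison at an FDR of 0.01 over the same 27927 candidates, 7163 autosomal islands passed (47.9%, 47.1 to 48.7), with a median fold of 1.72. This comparison was chosen after the data were seen and sets these libraries, not conditions, against each other.

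Islands of high fold had both more ChIP reads and fewer input reads per kb. Both counts are part of the fold, so grouping by fold favours this pattern, and by how much was not tested. In the 7177 islands with a fold under 1.5 the median densities were 28.1 ChIP and 24.0 input reads per kb. In the 1271 islands with a fold from 2 to under 3 they were 34.2 and 18.1, and in the 90 with a fold of 3 or more they were 41.0 and 13.9. Islands of high fold were also small, and in small islands counting error is larger and the caller needs a larger excess. The median length fell over these classes from 4200 to 2400 and 1700 bp, and the median reads were 63 ChIP beside 22 input reads at a fold of 3 or more. Of the 90 islands with a fold of 3 or more, 60 were at most 2000 bp long, 64 had under 16.9 input reads per kb and 4 held at least 100 ChIP reads.

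**Figure D2:**
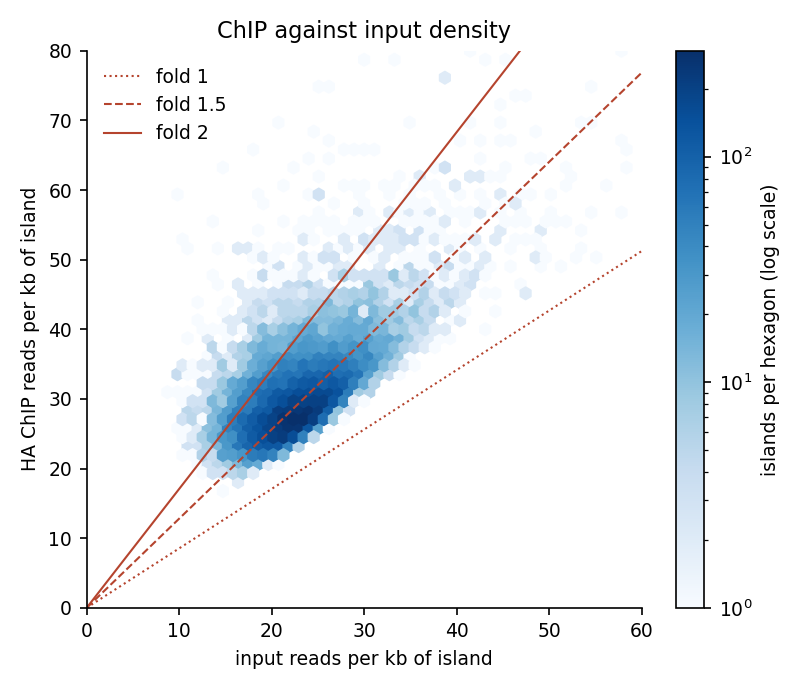
HA ChIP reads per kb against input reads per kb of each island, with shade for the number of islands on a log scale and lines for folds of 1, 1.5 and 2. The cloud has an edge along low folds, all islands shown lie above a fold of 1, and the few above 2 lie mainly at low input density. The 105 islands beyond 60 input or 80 ChIP reads per kb are not shown.

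Longer islands had lower folds. In the 1575 islands up to 2000 bp the median fold was 1.78 (1.76 to 1.81), in the 8048 of 2000 to 4000 bp it was 1.55 (1.54 to 1.56), in the 5087 of 4000 to 8000 bp it was 1.42 (1.41 to 1.42) and in the 246 over 8000 bp it was 1.301 (1.28 to 1.31). The intervals of the 4 medians did not overlap. A fold of 2 or more was seen in 30.9% of the shortest class (28.6 to 33.3), 9.56% and 2.06% of the next, and 0 of 246 of the longest, which allows up to 1.49%. Across all islands the Spearman rho between length and fold was -0.475, as a description only.

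The densities behind these folds moved unequally with length. Median ChIP density was 41.3 reads per kb up to 2000 bp, 30.4, 26.5 and 26.3 in the longer classes. Median input density was 27.5, 22.7, 21.7 and 23.5 reads per kb. Short islands in the list were thus dense in both libraries, and in ChIP more than in input. Few listed islands held under 68 ChIP reads, the 5th percentile. A short island with that many reads is dense in ChIP, so the list favours this pattern. By how much was not tested.

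The lowest fold in the list also depended on depth, because the caller needs a larger excess where reads are few. Among islands with under 75 ChIP reads the lowest fold was 1.35 and the median 1.78. From 75 to under 100 reads these were 1.303 and 1.57, and from 100 to under 150 reads 1.24 and 1.47. From 150 to under 300 reads they were 1.18 and 1.36, and with 300 or more 1.07 and 1.253. Since longer islands hold more reads (a median of 69 up to 2000 bp and 243 over 8000 bp), the lower folds of long islands and their lower threshold cannot be told apart in the list. Among islands with at least 100 ChIP reads the longest class had 0.944 times the median fold of the shortest, over 246 and 31 islands, against 0.729 times over the whole list. With a median of 69 reads in the shortest class, its 31 islands were picked for high ChIP density. This comparison therefore does not change depth alone.

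Islands sparse in input had higher folds, and over all lengths together the difference was small above the median input density. Below 16.9 input reads per kb, which is 0.75 times the median, the median fold was 2.01 (1.99 to 2.03) over 1022 islands. From there to the median of 22.5 it was 1.58 (1.58 to 1.59) over 6494 islands, and from the median to 28.1 reads per kb 1.42 (1.42 to 1.43) over 5754. From 28.1 to 45 reads per kb it was 1.42 (1.41 to 1.43) over 1541 islands, and above 45 it was 1.36 (1.31 to 1.40) over 145. Over all lengths together the steps lay in the sparse range, and above the median density the medians were close. Median length also fell there, from 3400 bp between the median and 28.1 reads per kb to 2400 and then 1400 bp. Within each length class the median fold kept falling above the median density. In islands up to 2000 bp it fell from 1.84 to 1.59 and 1.52. The share with a fold of at least 2 was 51.3% (48.2 to 54.4) in the sparsest class, 9.69% and 2.55% in the next, 3.44% from 28.1 to 45 reads per kb and 5.52% (2.41 to 10.6) above 45, beside 9.1% of all islands. Input reads are part of the fold, so a low input count by counting error alone raises it, and the share of the pattern that comes from this was not tested.

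Both patterns were present within classes of the other, as a description. At a given input density shorter islands hold fewer reads, and at a given length input reads are still part of the fold. The classes therefore do not separate either pattern from the caller's threshold or from counting error in the input. From 16.9 to 22.5 input reads per kb, the median fold was 2.25 in 308 islands up to 2000 bp, 1.67 in 3400 of 2000 to 4000 bp, 1.47 in 2696 of 4000 to 8000 bp and 1.40 in 90 longer ones. Among islands of 2000 to 4000 bp it was 2.14 in the sparsest input class, 1.67, 1.46 and 1.37 in the next and 1.27 in the 34 densest. The short and sparse corner held 56 islands, all with a fold of at least 2 and a median of 3.16. Islands there hold few input reads by the choice of classes, and the caller needs a larger excess where reads are few. By how much this raised their folds was not tested. The long and dense corner held 17 islands with a median fold of 1.13.

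**Figure D3:**
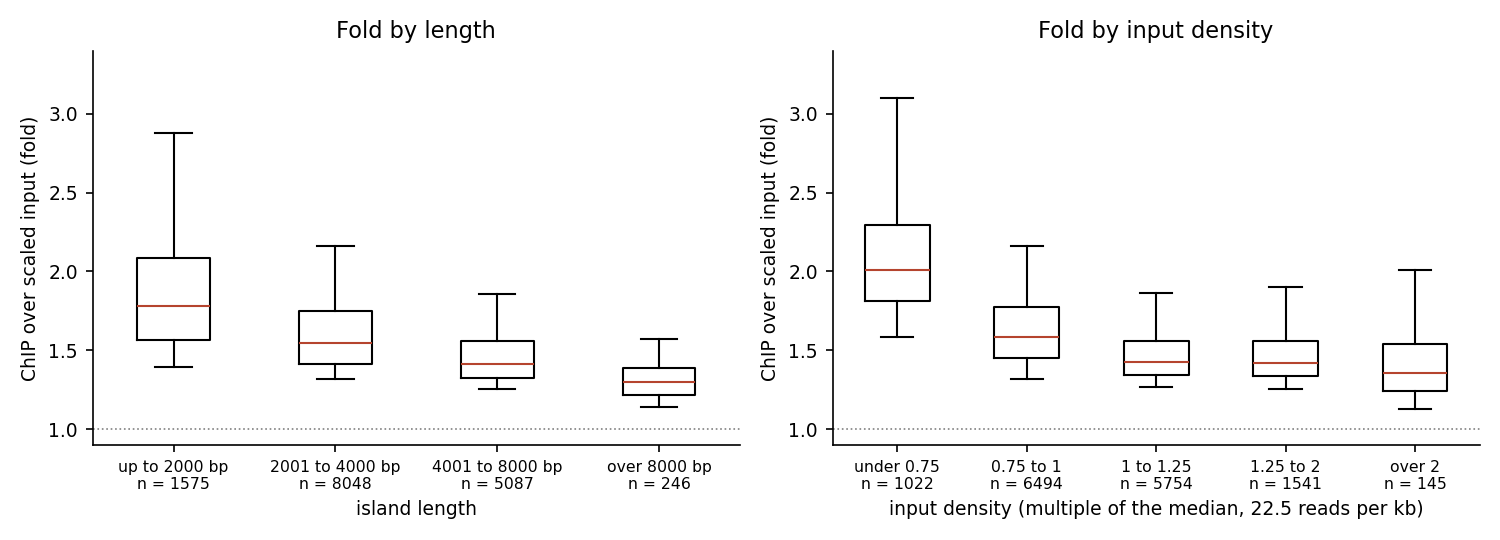
Fold of ChIP over scaled input by island length (left) and by input density as a multiple of the list median (right). Boxes span the quartiles with the median in red, whiskers reach the 5th and 95th percentiles, and the dotted line marks a fold of 1. Medians fall from 1.78 to 1.301 with length and from 2.01 to 1.36 with input density.

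Among the 8239 islands with at most 45 input reads per kb and at least 100 ChIP reads, the 5 highest folds lay on 5 chromosomes. The first was at chr6:59065601-59068600, where 105 ChIP reads stood beside 39 input reads for a fold of 3.15 (2.16 to 4.68). The next were chr2:41125201-41128600 with 120 and 45 reads and a fold of 3.12 (2.20 to 4.50), and chr5:131941801-131945200 with 103 and 39 reads and 3.09 (2.12 to 4.59). They were followed by chr16:27524601-27528400 with 124 and 47 reads and 3.09 (2.19 to 4.42), and chr19:15845801-15850000 with 111 and 44 reads and 2.95 (2.07 to 4.29). All 5 had 10.5 to 13.2 input reads per kb, in the sparsest class. Their intervals overlapped, so their order is not established. They are the extremes of these 8239 islands, and the intervals are not corrected for that choice.

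Among islands with at most 45 input reads per kb, ranked by the deposited p-value, 2 islands of chromosome 16 came first. Denser islands, some of them with lower p-values, were left out of this ranking. The island chr16:88619401-88621800 held 98 ChIP and 28 input reads, a fold of 4.099 (2.67 to 6.48), and chr16:88907401-88908600 in the same 1 Mb bin held 63 and 12 reads, a fold of 6.15 (3.29 to 12.5). Their bin held 15 islands in all. The chromosome 16 and chromosome 2 islands named before, chr16:27524601-27528400 and chr2:41125201-41128600, came next. The fifth, chr19:23549201-23554200, was 5000 bp long with 163 and 74 reads and a fold of 2.58 (1.95 to 3.44).

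The islands richest in reads were rich in both libraries. At chr2:98501401-98507600 the input held 9058 reads per kb and ChIP 9711, a fold of 1.26 (1.24 to 1.27). The next were chr9:35112601-35113400 with 7971 input reads per kb and a fold of 1.37 (1.33 to 1.42), and chr9:2999801-3038600 with 4893 and a fold of 1.41 (1.40 to 1.42). They were followed by chr12:3109201-3110400 with 3519 and 1.40 (1.35 to 1.46), and chr12:75904601-75905600 with 2224 and 1.34 (1.26 to 1.41). Read pileups of this kind are common where a build holds fewer copies of a repeat than the genome does. The islands chr2:98501401-98507600 and chr9:2999801-3038600 alone carried 14.5% of the ChIP reads and 15.6% of the input reads in autosomal islands. The 145 densest islands lay on all 19 autosomes, had a median length of 1400 bp and a median fold of 1.36, and 21 of them were on chromosome 4.

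The longest islands had high input and folds near 1, apart from chr9:2999801-3038600. At chr4:60064601-60094000, of 29400 bp, 1492 ChIP reads stood beside 1613 input reads for a fold of 1.08 (1.01 to 1.16). At chr14:45314001-45333200, of 19200 bp, the fold was 1.10 (1.001 to 1.22). At chr4:146790001-146808600 it was 1.07 (1.01 to 1.13), and at chr4:144993401-145010800 it was 1.15 (1.03 to 1.29). All 4 lower bounds were above 1, by little.

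Islands were spaced unevenly. Between neighbouring islands of a chromosome the median gap was 64.0 kb (62.4 to 65.6), with quartiles of 24.4 and 148.2 kb, while the mean gap was 156.4 kb. The caller joins windows over gaps of up to 600 bp, and the smallest gaps in the list were 800 bp, which 110 pairs of islands had. Gaps of at most 10 kb made up 11.9% of the 14937 gaps (11.4 to 12.4) and gaps of at most 100 kb 63.9%. At the other end 332 gaps were longer than 1 Mb and together took 664 Mb, or 26.8% of the autosomes. A small number of long empty stretches thus took up much of the sequence.

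The longest empty stretches between islands were several megabases long. They were chr2:24573001-33813000 with 9.24 Mb, chr7:38038001-46930800 with 8.89 Mb, chr4:122382401-130831000 with 8.45 Mb, chr5:118012201-126331400 with 8.32 Mb and chr4:136077801-143025400 with 6.95 Mb. An empty stretch means that no candidate passed the threshold there, not that TH2B was missing.

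Close neighbours came mostly in pairs. A neighbour within 10 kb was present for 3311 islands (22.1%, 21.5 to 22.8), and within 50 kb for 9738 (65.1%). Joined over gaps of at most 10 kb, the list formed 11645 single islands and 1533 runs, of which 1319 held 2 islands, 187 held 3, 23 held 4 and 4 held 5. Long chains of islands were therefore rare. The runs of 5 were chr12:115150001-115202600, spanning 52.6 kb with a fold of 1.44 (1.27 to 1.62) over its summed reads, chr3:92021801-92070000 with 48.2 kb and 1.247 (1.16 to 1.33), chr10:29194801-29231400 with 36.6 kb and 1.48 (1.302 to 1.68) and chr13:84057401-84094000 with 36.6 kb and 1.46 (1.28 to 1.67). The run on chromosome 3 differed in depth, with 46.0 input reads per kb against 21.7 to 22.8 in the other 3. The longest run of 4 was chr2:107824801-107862800, spanning 38.0 kb with a fold of 1.53 (1.32 to 1.78).

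Over megabases the islands were clustered. In the 2463 whole bins of 1 Mb the mean was 6.06 islands, the median 5 and the SD 5.28, and the variance was 4.61 times the mean, where counts scattered independently at one rate have a ratio near 1. The densest 10% of bins held 27.6% of the islands and the densest 25% held 55.7%. No island lay in 398 bins (16.2%), of which 57 were the first 3 Mb of each autosome, where no island had its midpoint on any chromosome. The other 341 empty bins lay further along. All 398 are counted in the ratio of 4.61. Over bins from the first to the last island of each autosome the variance was 4.42 times the mean. At least 15 islands lay in 182 bins and at least 20 in 38.

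Crowded bins lay next to crowded bins. The Pearson r between the island numbers of bins was 0.522 for adjacent bins (2444 pairs), 0.329 at 2 Mb, 0.233 at 3 Mb, 0.137 at 5 Mb, 0.0921 at 10 Mb and 0.0161 at 30 Mb. These are descriptions over bins of 1 library, which share its mappability and base composition. The likeness was thus greatest within a few megabases.

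The most crowded bins were on chromosomes 1, 2 and 6. The bins chr2:43000001-44000000 and chr1:101000001-102000000 held 29 islands each, covering 11.9% and 11.02% of the bin. The bin chr6:103000001-104000000 held 27, chr1:102000001-103000000, directly beside the earlier chromosome 1 bin, held 26, and chr6:15000001-16000000 held 25. The summed reads of these bins gave folds of 1.41 to 1.51, and 0 to 3 islands in each had a fold of at least 2. Their median folds ran from 1.47 to 1.57, beside 1.51 over the list. The caller removes low folds in every bin, so these values say little about strength itself.

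**Figure D4:**
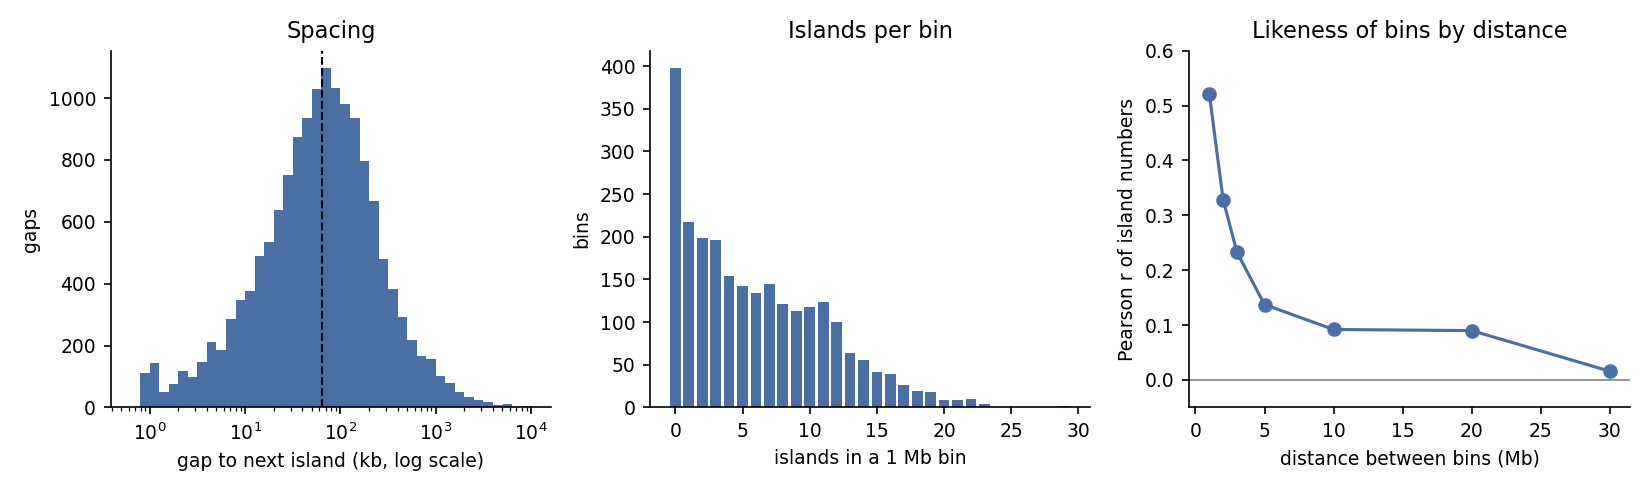
Gaps between neighbouring islands in kb on a log axis (left, dashed line at the median of 64.0 kb), number of 1 Mb bins by islands held (middle) and Pearson r of island numbers by distance between bins in Mb (right). Most bins hold few islands and a tail reaches 29, and r falls from 0.522 at 1 Mb to 0.137 at 5 Mb.

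Median folds were close at every level of crowding, with overlapping intervals. The median fold was 1.517 (1.504 to 1.531) in bins with 1 to 3 islands, 1.512 (1.501 to 1.520) with 4 to 7, 1.518 (1.508 to 1.526) with 8 to 11, 1.506 (1.496 to 1.516) with 12 to 15 and 1.508 (1.495 to 1.518) with 16 or more. Median length was 3600 bp in all 5 classes, and median input density ran from 22.5 to 22.7 reads per kb. The share with a fold of at least 2 ran from 8.27% to 10%, beside 9.1% of all islands. The share of islands with over 2 times the median input density did move, from 2.54% in bins with 1 to 3 islands to 0.502% with 16 or more.

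Runs showed the same. Islands with no neighbour within 10 kb had a median fold of 1.51 (1.51 to 1.52), those in pairs 1.504 (1.494 to 1.516) and those in runs of 3 or more 1.51 (1.48 to 1.53). Neighbouring islands were hardly alike in strength. The Spearman rho between the fold of an island and that of the next was 0.0218 at gaps up to 10 kb, 0.0316 at 10 to 50 kb, 0.0329 at 50 to 200 kb and 0.0356 beyond 200 kb. For input density it was 0.0298 to 0.0352 in the same classes. With folds spread about as widely as their counting error, such values say little about whether strength itself is shared between neighbours.

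The autosomes differed in how many islands they carried. Chromosome 1 had the most per Mb, 8.16 (Poisson interval 7.77 to 8.57), followed by chromosome 18 with 7.62 (7.07 to 8.21), chromosome 3 with 7.43 (7.01 to 7.87) and chromosome 16 with 7.33 (6.81 to 7.89). The fewest were on chromosome 7 with 3.72 (3.42 to 4.04), chromosome 11 with 4.40 (4.03 to 4.79), chromosome 17 with 4.56 (4.14 to 5.005) and chromosome 9 with 4.66 (4.29 to 5.05). The intervals of these groups did not overlap, while those of neighbours in the order within each group did overlap, for chromosomes 7 and 11 by little. Poisson intervals take islands as placed independently. Islands were clustered, with a variance of 4.61 times the mean over 1 Mb bins, so these intervals are too narrow and their overlap is a description. Chromosome 1 had 2.20 times the density of chromosome 7. At an FDR of 0.0001 or less the highest was chromosome 3 in place of chromosome 1, and chromosome 7 was still the lowest.

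**Figure D5:**
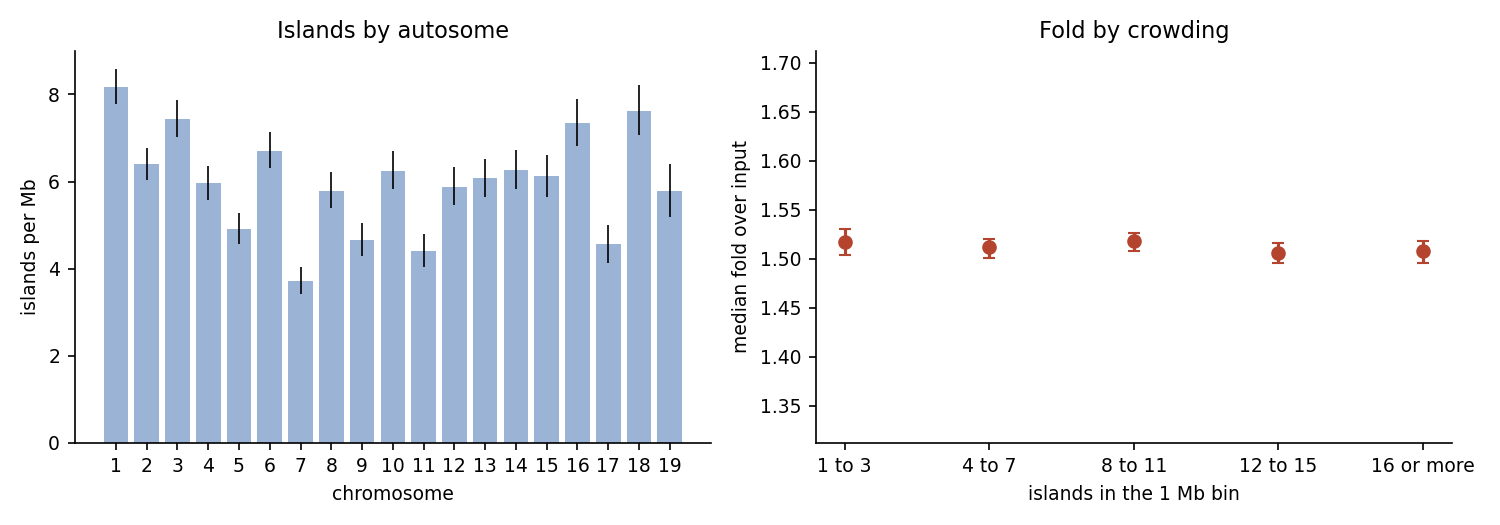
Islands per Mb on each autosome with 95% Poisson intervals (left), and median fold with its 95% interval by the number of islands in the 1 Mb bin (right, on an axis that does not start at 0). Island density runs from 3.72 on chromosome 7 to 8.16 on chromosome 1, while median folds stay between 1.506 and 1.518.

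Fold hardly varied between autosomes beside this. The median fold ran from 1.46 (1.45 to 1.48) on chromosome 1 to 1.54 (1.53 to 1.56) on chromosome 14, and the other 17 lay between 1.501 and 1.528. Chromosome 1 had the highest median input density, 23.3 reads per kb, and the highest median length, 3800 bp. Across the 19 autosomes, the Pearson r between median input density and median fold was -0.732 (Spearman -0.608), with input reads shared by both measures. Between islands per Mb and median fold the r was -0.175 (Spearman 0.0852). The variance to mean ratio of islands per bin ran from 3.21 on chromosome 3 to 6.58 on chromosome 11, so islands were unevenly placed on each autosome and most so on one of those with few.

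Along the chromosomes the last stretch carried the fewest islands. With each autosome from 3 Mb to its end cut into 10 equal parts, the first part had 6.70 islands per Mb, the middle parts between 5.73 and 7.31 and the last 2 had 5.03 and 3.90. Median fold ran from 1.49 in the first part to 1.54 in the eighth. Islands of over 2 times the median input density had their highest shares at the ends, 1.79% in the first part and 2.12% in the last, against 0.524% to 1.27% between them. These shares rest on few islands, 29 in the first part and 20 in the last, beside 21 in the fourth. A single stretch near the end of chromosome 4 held 8 islands of this density. Whether the last part stands out without chromosome 4 was not tested. The order of parts is not the same stretch of sequence on each chromosome, and mouse autosomes have their centromere at the start.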

How the data were processed

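Members and classes were chosen with earlier results of these data known. Islands were called with SICER on mm9, per the submitters' processing notes, with windows of 200 bp and gaps of 600 bp by the list's name. For the aligner, software versions and read filters, the sources used here give nothing. The spermatocyte list had 8 columns without a header and 2 blank lines, which were skipped. Per island the authors deposited a ChIP read count, a control read count, a p-value and an FDR. Their deposited fold was the ChIP count over the control count and over 1 constant in every island, as checked. The 2 other lists served only for their number of islands. Starts were moved to count from 1.

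Lengths, densities, gaps, bins and classes were computed from the list with scipy 1.17.1, pandas 2.3.3 and numpy 2.4.6 under Python 3.11.15. The variance to mean ratio, the fold of summed reads and the interval of a fold were tested on simulated islands or counts. Plots were drawn with matplotlib 3.10.9. Chromosome lengths of mm9 came from GenomeInfoDb 1.38.1. Shares and folds have exact (Clopper-Pearson) intervals, medians have binomial intervals, and islands per Mb have Poisson intervals, all at 95%. An island belonged to the bin of its midpoint. Named were the first 5 islands by fold (at least 100 ChIP reads) and by deposited p-value, both with no more than 45 input reads per kb, the 5 longest, the 5 densest in input, and the first 5 runs, bins and empty stretches. The 2 islands nearest the FDR threshold and the named chromosomes were added after values were seen. Genes and sequence at the islands were not analysed here.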

Additional observations from a re-analysis of the deposited data

How the results depend on the processing

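Of 75 alternatives to 12 results, 37 moved a value, 0 reversed one and 38 kept it inside its interval or, for values without one, inside 1.5 times. Only the correlation of adjacent bins and the 2 ratios of fold between classes could be reversed. The other results are positive by construction, so the count of 0 says nothing about them. The 2 settings on counting error and on bins from the first to the last island were chosen after the data were seen. At an FDR of 0.0001 or less there were 7522 islands, with a median length of 3400 bp, 1.12% of the autosomes covered, a median fold of 1.71, 18.1% at a fold of at least 2, a median gap of 133000 bp, 11.8% with a neighbour within 10 kb, a variance to mean ratio of 2.94 and a fold of the longest over the shortest class of 0.696. With counting error in ChIP and input the same values were 7163, 3400 bp, 1.08%, 1.72, 18.9%, 139800 bp, 11.2%, 2.83 and 0.684. With at least 100 ChIP reads there were 8328 islands, a median length of 4400 bp, a median fold of 1.44, 3.37% at a fold of at least 2, a median gap of 114800 bp, 14.3% with a neighbour within 10 kb and a longest over shortest ratio of 0.944. Fewer islands give wider gaps by construction, and the cause of the other moves was not tested.

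Without chromosome 1 the median fold was 1.52, and by summed reads 1.48. With 1 read added, 8.55% reached a fold of 2, and 52.0% reached 1.5 as deposited. A neighbour lay within 5 kb for 12.3% and within 50 kb for 65.1%. The variance to mean ratio was 3.03 in bins of 0.5 Mb and 11.7 in bins of 5 Mb, where adjacent bins correlated with 0.333. The longest over shortest ratio was 0.814 by summed reads and 0.672 at 18.0 to 28.1 input reads per kb. The densest over sparsest input ratio of folds, 0.676 over the list, was 0.623 at lengths of 2400 to 4800 bp. It has no value without islands above 2 times the median input density. No paired analysis was possible because each group had 1 library. Depth limits what can be said of 1 island, since the median island holds 103 ChIP and 79 input reads.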
